A study of Mus musculus with 45 samples.

Results

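Pancreatic islets of NZO/HlLtJ mice were compared with islets of CAST/EiJ mice on the control diet, across all genes, with sex as a factor. The samples are the 14 of the study's 45 whose titles name the diet as "10% fat+fiber" and 1 of these 2 strains. They are 7 of NZO/HlLtJ and 7 of CAST/EiJ, each with 4 females and 3 males. All were wild type by the labels, received no treatment other than the diet, which began at 6 weeks of age, and were collected at 15 weeks. The 8 C57BL/6J samples on the same diet are quoted only as levels set beside the comparison. Samples are numbered within a strain and sex in accession order, which only names them. Labels do not tell which animals a sample came from, so the tests measure how far these samples spread, which may be technical.

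Islets are clusters of endocrine cells in which beta cells make insulin, alpha cells glucagon, delta cells somatostatin, and rarer cells pancreatic polypeptide or ghrelin. Beta cells take up glucose, and its metabolism closes potassium channels, lets calcium in and releases insulin granules. NZO/HlLtJ is an inbred strain with polygenic obesity and a tendency to diabetes in males, and CAST/EiJ is a lean inbred strain derived from wild mice of another subspecies, whose genome differs from the C57BL/6J reference at far more sites than that of NZO/HlLtJ.

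Total counts of the 14 libraries ran from 73760837 to 109950221, with a median of 86949011, and the ranges of the strains overlapped. The Y-linked helicase gene Ddx3y was at 51.2 to 74.3 CPM (counts scaled to a common library size, with TMM factors) in the 6 male samples and at most 0.0186 CPM in the 8 female samples, so each label matched its sex. Acinar cells surround islets and make digestive enzymes, and their transcripts varied widely. The 26 genes of the acinar list held 1.93% to 8.85% of counts in NZO/HlLtJ (median 4.62%) and 0.0653% to 41.1% in CAST/EiJ (median 4.39%). CAST/EiJ female 4 held the 41.1%, and the strains did not separate (mean 4.56% ± 2.42 against 9.14% ± 14.4, SD, n = 7 each; exact permutation test with strains exchanged within each sex, two-sided p = 0.663). The sample identifiers fall into 3 ranges of consecutive numbers, which may mark samples handled together. The second range holds no NZO/HlLtJ male and the third no NZO/HlLtJ female, so the range was a term of the fit. Within NZO/HlLtJ, sex and range can be told apart only through the first range, with 2 females and 1 male.

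The strains differed in a large share of the genes expressed in islets. Of 18876 genes tested, 9201 (48.7%) were called in the mean of the sexes at an adjusted p under 0.05 (edgeR quasi-likelihood test, Benjamini-Hochberg adjustment), 4708 (24.9%) higher and 4493 (23.8%) lower in NZO/HlLtJ. Those that also differed at least 2-fold numbered 3833 (20.3%), 2007 higher and 1826 lower. The CPM of the 7 and 7 samples did not overlap for 4012 genes (21.3%), 4002 of them called. Called genes had the same sign in both sexes in 99.4% of cases and the same sign within each of the 3 number ranges in 92.8%. The calls rest on the mean of the sexes in these same samples, so agreement of sign is largely built in. The median log2 fold change over all tested genes was -0.01 and the median size of the change, either way, was 0.399, against a median standard error of 0.142. All log2 fold changes below are NZO/HlLtJ minus CAST/EiJ, given ± SE. The SE was derived from the test, as the size of the log2 fold change divided by the square root of the F statistic. "Called", "higher" and "lower" refer to this test, and the counts of gene lists should be read against 24.9% and 23.8%.

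**Figure D1:**
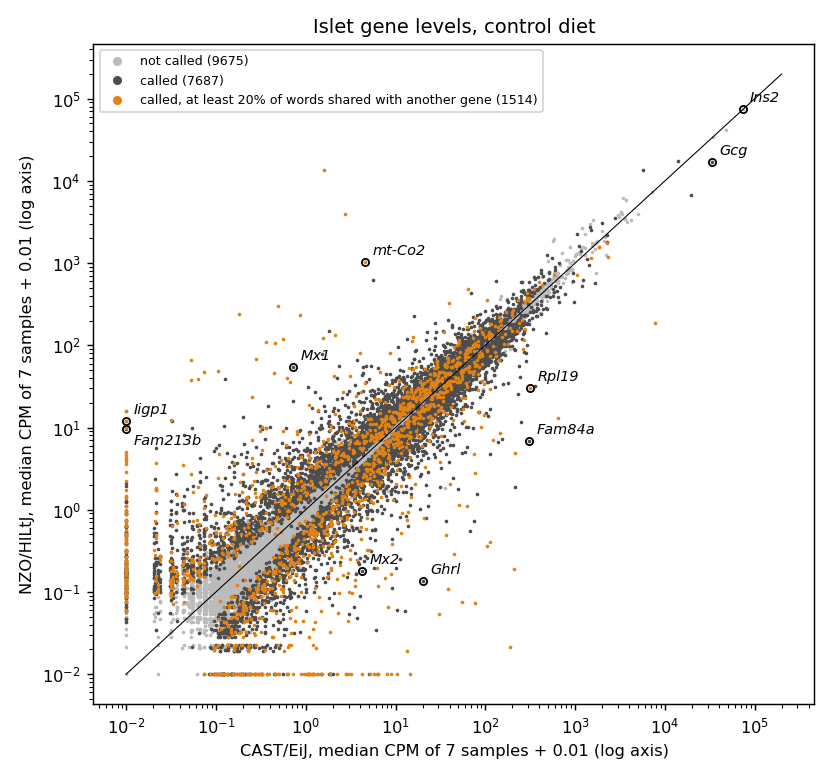
Median CPM of each tested gene in the 7 CAST/EiJ (x) and 7 NZO/HlLtJ (y) control-diet samples, both with 0.01 added and on log axes; the line marks equal levels. Called genes are dark, or orange where uncertain because of near copies, and circles mark named genes: Ins2 lies on the line, Mx1 and Iigp1 above it, Ghrl, Fam84a and Mx2 below it.

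The largest differences were concentrated in genes with near copies elsewhere in the genome. A gene is called uncertain here where 20% or more of its 31-base words recur in the transcripts of other genes, because reads can then be divided between copies. Of the 550 genes called at 16-fold or more, 279 were uncertain. Where genes overlap or lie antisense to each other, their reads cannot be told apart either, since the strand setting of the counting was not stated. Processed pseudogenes, intronless copies of spliced messenger RNA, reached 16-fold in 20.2% of 386 tested, against 2.04% of 15588 protein-coding genes. Without the uncertain genes, 15676 were tested and 48.8% of them called, so the share of called genes was as large without them. The 3 pairs that follow are shown as cases of a gene and a copy whose coding sequences can hardly be told apart in the reference genome. Each 30-base stretch is part of the coding sequence (GENCODE M21, GRCm38), 5′ to 3′, with differing bases in capitals.
Rpl19, coding bases 176 to 205: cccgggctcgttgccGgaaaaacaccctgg
Rpl19-ps11, aligned stretch: cccgggctcgttgccAgaaaaacaccctgg
Hba-a1, coding bases 366 to 395: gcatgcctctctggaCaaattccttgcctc
Hba-a2, aligned stretch: gcatgcctctctggaTaaattccttgcctc
Rps12, coding bases 1 to 30: atggccgaggaaggcatagctgctggaggt
Rps12-ps3, aligned stretch: atggccgaggaaggcatagctgctggaggt
The stretches hold the sole difference over 591 coding bases of Rpl19 and over 429 of Hba-a1, and Rps12 and Rps12-ps3 are identical over all 399.

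For the ribosomal protein gene Rpl19 (chromosome 11, 98026710 to 98030492), NZO/HlLtJ samples held 26.2 to 37.8 CPM (median 30.4) and CAST/EiJ samples 291.4 to 415 CPM (median 318). The groups were far apart, with a log2 fold change of -3.41 ± 0.09 (adjusted p = 3.39e-11). When Rpl19 was summed with the copies that share at least 10% of its words, the medians were 327 and 319 CPM and the difference of mean log2(CPM + 0.5) went from -3.42 to 0.02. Rps12 behaved alike, with -4.09 alone and 0.14 summed, and so did Rpl17 with -5.29 and 0.12. In the other direction, Rps13 went from 2.93 to 0.01 and Rpl29 from 2.71 to -0.16. The alpha globin gene Hba-a1 went from 5.43 to -0.33 with Hba-a2, and the mitochondrial cytochrome oxidase gene mt-Co2 went from 7.63 to 0.33 with its nuclear copies. Car15, a membrane-bound carbonic anhydrase, did not follow this pattern: it stood at 4.86 to 19.2 CPM in NZO/HlLtJ (median 13.2) against 346.8 to 825 CPM in CAST/EiJ (median 648), and summing it with its copy left -5.40 of -5.58. No source used here tells how reads were assigned to copies, and its part in these differences was not tested beyond the sums.

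**Figure D2:**
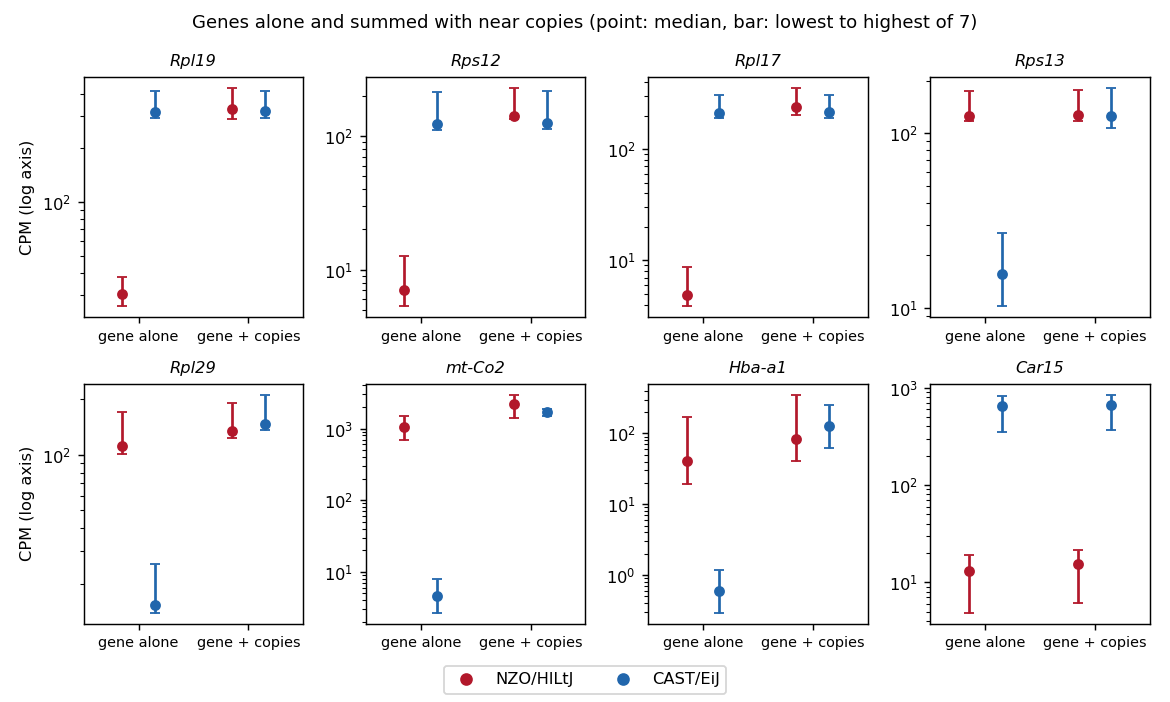
CPM (log axis) of 8 genes counted alone and summed with the copies that share at least 10% of their 31-base words, in NZO/HlLtJ and CAST/EiJ; points are medians and bars run from the lowest to the highest of 7 samples. The strains are apart for each gene alone and overlap in the sums except for Car15, which stays at medians of 15.4 and 665 CPM.

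Among protein-coding genes expressed in both strains, those with the largest differences that are not shared with copies included secreted proteins, receptors and synaptic genes. Only called genes whose CPM did not overlap between the strains were considered, here and in the lower direction below. Ambp, the precursor of alpha-1-microglobulin and bikunin, was at 46.5 to 105 CPM in NZO/HlLtJ (median 55.6) and 3.88 to 8.17 CPM in CAST/EiJ (median 5.30). The log2 fold change was 3.48 ± 0.17 (adjusted p = 6.19e-09). Ugt2b34, a glucuronosyltransferase, followed at 3.22 ± 0.17, Cpb2, a carboxypeptidase that slows clot breakdown, at 3.02 ± 0.15, and the exchange factor gene Rasgrf2 at 2.68 ± 0.08. Enpep, which encodes the angiotensin-cleaving aminopeptidase A, was higher by 2.58 ± 0.07. The zinc finger gene Zfp92, the transcription factor gene Tcf24, the cadherin gene Cdhr1 and Car8, a carbonic anhydrase relative without enzyme activity, completed this group at 2.59 to 2.86.

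In the lower direction, Fam84a (chromosome 12, 14146830 to 14152054) was at 5.19 to 9.22 CPM in NZO/HlLtJ (median 6.77) and 138 to 464 CPM in CAST/EiJ (median 307). That is a log2 fold change of -5.48 ± 0.28 (adjusted p = 9.40e-09), and the 8 C57BL/6J samples, with a median of 6.39 CPM, lay with NZO/HlLtJ. Gpr155, a membrane protein of lysosomes that senses cholesterol, fell by 4.46 ± 0.11, from a CAST/EiJ median of 140.0 CPM to 6.71 CPM. Nnat encodes neuronatin, which aids the processing of preproinsulin in beta cells. It was at 3.03 to 11.3 CPM in NZO/HlLtJ (median 7.34) and 104 to 193 CPM in CAST/EiJ (median 153), with a log2 fold change of -4.35 ± 0.18. The small heat shock protein gene Hspb8 (-3.12 ± 0.20), the beta-synuclein gene Sncb (-2.95 ± 0.13), the neuronal pentraxin gene Nptx1 (-2.94 ± 0.09), the metabolic enzyme gene Cryl1 (-2.91 ± 0.11) and the RNA host gene Snhg11 (-3.52 ± 0.25) were lower as well. Rpl9 (-4.29 ± 0.14) shares 19.9% of its words, just under the limit set here, and its sum with copies differed by -0.15.

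A small number of genes were seen in 1 strain and hardly at all in the other: at least 1 CPM in all 7 samples of one and at most 3 counts in any sample of the other. NZO/HlLtJ had 10 of these, 7 of them protein-coding, and CAST/EiJ had 11, 4 of them protein-coding. Fam213b, a prostamide synthase gene on chromosome 4 (154895504 to 154899135), was at 7.75 to 12.2 CPM in NZO/HlLtJ (median 9.59). It had no count in any CAST/EiJ sample. Against a floor of 3 counts per library it was at least 249.5-fold higher, and C57BL/6J had a median of 8.55 CPM. Iigp1, an interferon-induced GTPase gene, was at 3.52 to 107 CPM in NZO/HlLtJ (median 11.9) and at 2 counts at most in a CAST/EiJ sample. The other certain gene was 4930550C14Rik (median 2.34 CPM against at most 3 counts), and the other 4 protein-coding genes, 9930111J21Rik1, 9930111J21Rik2, Tgtp2 and Slc22a29, have near copies. On the CAST/EiJ side, the zinc finger gene Zfp607 (median 5.09 CPM), the potassium channel subunit gene Kcnmb3 (2.01 CPM) and the inflammasome sensor gene Nlrp1a (1.83 CPM) had at most 3, 3 and 2 counts in any NZO/HlLtJ sample, and Gm13697 has a near copy. Of the 7 and 4 protein-coding genes, 6 and 1 were at 1 CPM or more in each C57BL/6J sample. The processing notes name the GRCm38 reference, from which CAST/EiJ differs at far more sites than NZO/HlLtJ. Its part in missing counts was not tested.

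The insulin genes did not pass the test, while glucagon and ghrelin were lower in NZO/HlLtJ. Ins2 was at 58160 to 95920 CPM in NZO/HlLtJ (median 74280) and 51580 to 88230 CPM in CAST/EiJ (median 73840), with a log2 fold change of 0.04 ± 0.26 (adjusted p = 0.911). For Ins1 the medians were 41180 and 47700 CPM and the change was -0.14 ± 0.24 (adjusted p = 0.668). The glucagon gene Gcg was at 6243 to 20820 CPM in NZO/HlLtJ (median 16990) and 17540 to 43340 CPM in CAST/EiJ (median 33360). The 3 NZO/HlLtJ males, at 6243, 7032 and 11120 CPM, were the lowest of the 14 samples, the strains overlapped by way of CAST/EiJ male 1, and the log2 fold change was -1.21 ± 0.21 (adjusted p = 0.000483), with -0.75 in females and -1.67 in males. Ghrl, the ghrelin gene (chromosome 6, 113716119 to 113719880), was at 0.0338 to 0.438 CPM in NZO/HlLtJ (median 0.124) and 4.88 to 39.5 CPM in CAST/EiJ (median 20.1), without overlap. Its log2 fold change was -6.58 ± 0.55 (adjusted p = 7.87e-07), or -7.19 without NZO/HlLtJ female 2, and C57BL/6J had a median of 5.74 CPM.

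Of the 8 hormone genes, 1 was higher and 3 were lower. Iapp, which encodes the amylin co-secreted with insulin, was higher by 0.58 ± 0.20 (adjusted p = 0.0328): 15960 to 29900 CPM (median 17310) against 9919 to 15130 CPM (median 14020), with no overlap. The somatostatin gene Sst was lower by 0.42 ± 0.16 (adjusted p = 0.0423), through the 3 males at 1036 to 1452 CPM, since the 4 NZO/HlLtJ females, at 2209 to 2548 CPM, lay inside the CAST/EiJ range of 2023 to 3262 CPM. Both calls were slight and did not hold when some samples were left out. The call on Iapp was lost in the fits without NZO/HlLtJ female 1, 2 or 4, NZO/HlLtJ male 3, CAST/EiJ female 2 or 3 and CAST/EiJ male 2 or 3, with edgeR's adjusted p up to 0.082. The call on Sst was lost in 11 of the 14 such fits, all but those without NZO/HlLtJ male 1 or CAST/EiJ female 2 or 4, with edgeR's adjusted p up to 0.104. The pancreatic polypeptide gene Ppy (0.50 ± 0.34) and the peptide YY gene Pyy (0.01 ± 0.28) were not called. In bulk RNA, fewer cells of a type and less RNA per cell cannot be told apart.

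**Figure D3:**
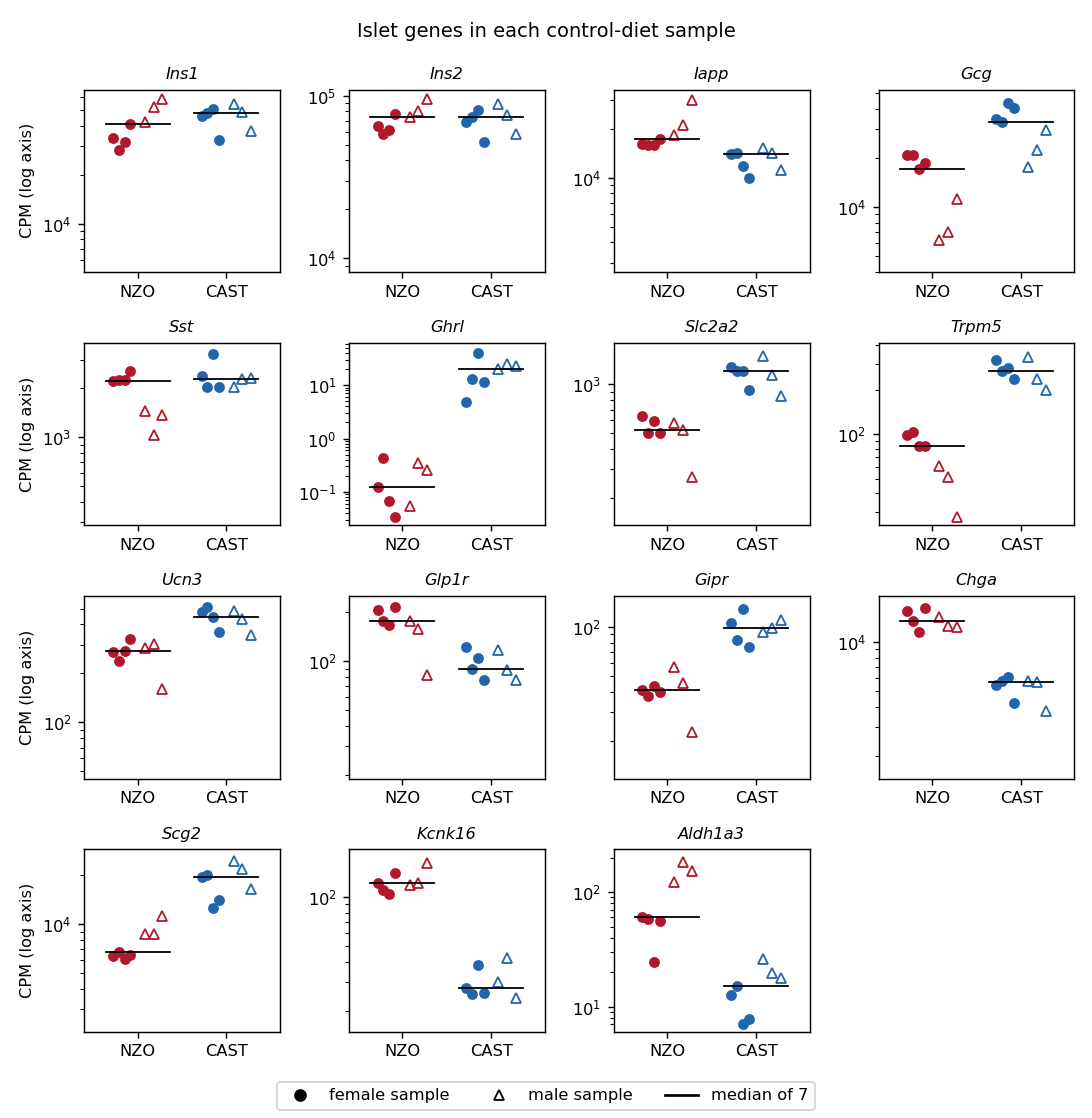
CPM (log axis) of 15 islet genes in each of the 14 control-diet samples, filled circles for females, open triangles for males, with the median of 7 as a line. The insulin genes overlap, Gcg is lowest in the 3 NZO/HlLtJ males, Iapp, Ghrl, Slc2a2, Trpm5, Ucn3, Gipr, Chga, Scg2 and Kcnk16 do not overlap between strains, and 1 NZO/HlLtJ male is low in Glp1r.

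Markers of alpha, delta and PP cells went both ways beside the lower glucagon gene, more of them lower than higher. Of 12 markers of alpha, delta and PP cells, 7 were lower and 3 higher, with a median log2 fold change of -0.55 (-0.53 in females, -0.57 in males). Pou3f4, an alpha cell transcription factor gene, was at 0.230 to 1.08 CPM in NZO/HlLtJ (median 0.906) and 3.32 to 11.96 CPM in CAST/EiJ (median 7.01), at -3.15 ± 0.16 (adjusted p = 7.67e-09). The transcription factor gene Irx2 (-1.12 ± 0.11), also expressed in alpha cells, was lower too. Higher were Gc, the vitamin D binding protein gene, at 1.46 ± 0.19, the peptidase gene Dpp4, whose product inactivates incretins, at 1.40 ± 0.12, and the transcription factor gene Etv1 at 0.66 ± 0.09. The list therefore did not move as a whole, and it does not divide its markers, lower or higher, among these cell types.

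More transcription factor genes of beta cells were lower than higher in NZO/HlLtJ. Of 14, 8 were lower and 1 higher, with a median of -0.31, and without CAST/EiJ male 1 5 were lower. Isl1, needed for islet cell maturation, was at 42.7 to 66.4 CPM (median 61.1) against 77.0 to 115 CPM (median 92.5), with no overlap and a log2 fold change of -0.70 ± 0.10 (adjusted p = 7.96e-05). Nkx2-2 was lower by 0.67 ± 0.10, Mnx1 by 0.55 ± 0.14 and Pax6 by 0.36 ± 0.08. The liver and islet regulator Hnf4a was higher by 0.58 ± 0.13. Pdx1 (-0.27 ± 0.12, adjusted p = 0.0801) and Mafa (0.05 ± 0.21, adjusted p = 0.875), the activators of insulin genes, were not called. Nkx6-1 (-0.36 ± 0.14, adjusted p = 0.045) was called, and 10 of the 14 fits with 1 sample left out lost the call, all but those without NZO/HlLtJ male 2, CAST/EiJ female 1 or 4, or CAST/EiJ male 3, with edgeR's adjusted p up to 0.123. Ins1, Ins2, Pdx1 and Nkx6-1 were present in every sample of both strains, as the label of islets has it.

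Genes of glucose sensing and beta cell maturity went both ways: of 20, 5 were higher and 7 lower (median -0.15). Slc2a2, the gene of the glucose transporter GLUT2 of mouse beta cells, was at 269 to 639 CPM in NZO/HlLtJ (median 523) and 847 to 1500 CPM in CAST/EiJ (median 1202), and C57BL/6J had a median of 808 CPM. The ranges did not meet, and the log2 fold change was -1.24 ± 0.16 (adjusted p = 3.77e-05), alike in females (-1.25) and males (-1.23). Trpm5, a calcium-activated cation channel gene, was lower by 2.08 ± 0.13 (median 83.7 against 269 CPM), and Ucn3, the urocortin 3 gene that marks mature beta cells, by 0.74 ± 0.13 (median 276 against 442 CPM). The granule zinc transporter gene Slc30a8 (-0.67 ± 0.14) and the granulophilin gene Sytl4 (-0.56 ± 0.09) were lower.

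On the higher side stood Kcnk16, the gene of the two-pore potassium channel TALK-1, at 104 to 162 CPM in NZO/HlLtJ (median 123) and 23.9 to 42.0 CPM in CAST/EiJ (median 27.6). Its log2 fold change was 2.07 ± 0.15 (adjusted p = 1.80e-07). G6pc2, which encodes the islet glucose-6-phosphatase, was higher by 0.75 ± 0.15. The prohormone convertase gene Pcsk1 and the disulfide oxidase gene Ero1lb were each higher by 0.58, with standard errors of 0.12 and 0.17.

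The genes of the incretin receptors differed in opposite directions. Glp1r, the receptor of glucagon-like peptide 1, was at 82.2 to 217 CPM in NZO/HlLtJ (median 176) and 76.7 to 122 CPM in CAST/EiJ (median 89.2). NZO/HlLtJ male 3, at 82.2 CPM, was the only one of that strain inside the CAST/EiJ range, and the log2 fold change was 0.72 ± 0.15 (adjusted p = 0.00135). Gipr, the receptor of glucose-dependent insulinotropic polypeptide, was at 22.8 to 56.7 CPM (median 41.1) against 75.0 to 129 CPM (median 98.8), lower by 1.31 ± 0.18 (adjusted p = 7.47e-05). Among 17 receptor genes, 4 were higher and 7 lower, with a median of -0.18. The insulin receptor gene Insr (0.55 ± 0.09), the leptin receptor gene Lepr (0.69 ± 0.18) and the galanin receptor gene Galr1 (0.86 ± 0.17) were higher. The glucagon receptor gene Gcgr (-1.22 ± 0.12), the calcium-sensing receptor gene Casr (-0.81 ± 0.09) and the somatostatin receptor gene Sstr2 (-1.41 ± 0.18) were lower.

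Secretory granule genes also divided. Chga, the chromogranin A gene, was at 11560 to 16170 CPM in NZO/HlLtJ (median 13530) and 3754 to 6091 CPM in CAST/EiJ (median 5650), higher by 1.36 ± 0.19 (adjusted p = 6.07e-05). Chgb, for chromogranin B, was higher by 1.56 ± 0.25 and Scg3, for secretogranin 3, by 0.70 ± 0.14. Scg2, for secretogranin 2, was at 6077 to 11230 CPM (median 6770) against 12490 to 24400 CPM (median 19600), lower by 1.25 ± 0.19 (adjusted p = 0.000167). The fusion machinery genes Snap25 (-0.68 ± 0.09) and Cadps (-0.80 ± 0.11) were lower. In all, 4 of 19 genes were higher and 7 lower, with a median of -0.01.

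Markers reported in stressed or dedifferentiated beta cells were higher in 5 of 10 cases and lower in 1, with a median of 0.60. The median was 0.22 in females and 1.29 in males, and -0.285 within the second number range, which holds no NZO/HlLtJ male. Aldh1a3, an aldehyde dehydrogenase that rises in failing beta cells, was at 24.4 to 182 CPM in NZO/HlLtJ (median 60.6) and 7.10 to 26.3 CPM in CAST/EiJ (median 15.1). The ranges met only through NZO/HlLtJ female 3 and CAST/EiJ male 1, and the log2 fold change was 2.52 ± 0.22 (adjusted p = 1.36e-06), with C57BL/6J at a median of 2.14 CPM. Serpina7, for thyroxine-binding globulin, was higher by 1.51 ± 0.19. The cholecystokinin gene Cck was called at 3.39 ± 0.74 on low levels (medians of 0.706 and 0.126 CPM), and NZO/HlLtJ male 3 alone held 21.6 CPM. Without that sample the fold was 2.23, and without CAST/EiJ female 2 it was 4.0. The gastrin gene Gast was called at 2.62 ± 0.54 with a median of 0.273 CPM in NZO/HlLtJ. The progenitor gene Neurog3 (-0.37 ± 0.22) was not called. Of 21 genes that beta cells normally keep silent, 7 were higher and 3 lower (median 0.30). Their median was 0.085 in females and 0.51 in males, and -0.36 within the second number range.

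Among genes of the stress responses to misfolded protein and to amino acid shortage, many were higher and none was lower. Of 22 genes of the unfolded protein response, which expands the folding capacity of the endoplasmic reticulum, 9 were higher, and their median was 0.54 (0.24 in females, 0.90 in males). Hspa5, for the chaperone BiP, was at 1356 to 3935 CPM in NZO/HlLtJ (median 2731) and 1349 to 2247 CPM in CAST/EiJ (median 1468), higher by 0.77 ± 0.21 (adjusted p = 0.00906) with overlapping ranges. Herpud1, of the degradation machinery, was higher by 0.94 ± 0.20, the co-chaperone gene Dnajc3 by 0.92 ± 0.18, the stress sensor gene Ern1 by 0.75 ± 0.10 and the disulfide isomerase gene Pdia6 by 0.74 ± 0.18. Of 20 genes of the integrated stress response, driven by the factor ATF4, 13 were higher, with a median of 0.61. Trib3, a pseudokinase gene, was higher by 1.65 ± 0.28, Chac1, for a glutathione-degrading enzyme, by 1.69 ± 0.32, and Ddit3, for the factor CHOP, by 0.95 ± 0.18. Phgdh, for the first enzyme of serine synthesis, was higher by 2.63 ± 0.47 but is uncertain. Its difference of mean log2(CPM + 0.5) was 2.605 alone and 2.6 summed with its copies. CAST/EiJ female 4, the sample with the high acinar share, held 110 CPM of Phgdh against a strain median of 8.65. Without that sample, 15 of the 22 and 15 of the 20 were called higher, and without NZO/HlLtJ female 3 14 of the 22. The mean log2 CPM of the 22 genes was 8.72 to 9.03 in the 3 NZO/HlLtJ males and 7.96 to 8.64 in the 4 females. Immediate early genes, which respond to tissue handling, were also higher in each of these males than in any of the females, with list means of 6.69 to 7.64 against 5.11 to 6.26, and their part in the difference was not tested.

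**Figure D4:**
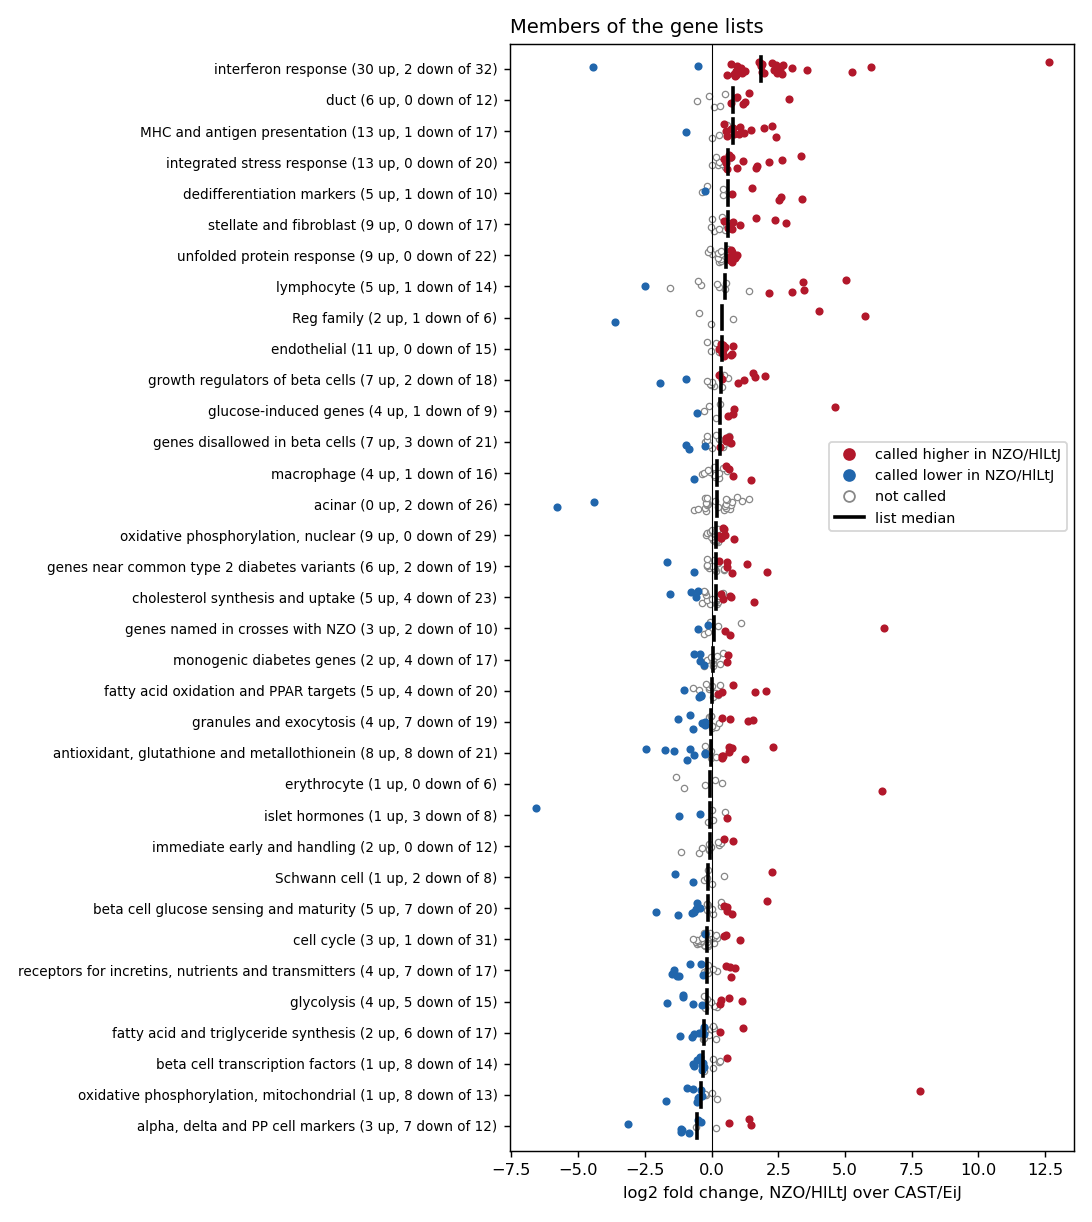
Log2 fold change, NZO/HlLtJ over CAST/EiJ, of each tested member of the gene lists with at least 6 tested members, ordered by list median (black bar); filled red and blue points were called higher and lower, open points were not called. The interferon list has the highest median at 1.87, the list of alpha, delta and PP cell markers the lowest at -0.55.

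Metabolic genes differed one by one more than list by list. Among aldolase genes, Aldoc was lower by 1.66 ± 0.11 and Aldoa higher by 0.32 ± 0.08. Enolase 2 (Eno2) was lower by 1.07 ± 0.08 and glycerol-3-phosphate dehydrogenase (Gpd1) higher by 0.85 ± 0.16. Txnip, a glucose-induced brake on thioredoxin, was at 139 to 874 CPM (median 288) against 176 to 306 CPM (median 251), called at 0.63 ± 0.20 (adjusted p = 0.0198) with -0.19 in females and 1.44 in males. The call on Txnip was lost without NZO/HlLtJ female 3, NZO/HlLtJ male 3, CAST/EiJ female 1 or CAST/EiJ male 3, with edgeR's adjusted p up to 0.0778. Of 15 glycolysis genes 4 were higher and 5 lower (median -0.19), and of 9 glucose-induced genes 4 were higher and 1 lower (median 0.31).

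Lipid genes were mixed. In cholesterol synthesis and uptake, 5 of 23 were higher and 4 lower (median 0.15): Pmvk, a mevalonate pathway kinase gene, was higher by 1.6 ± 0.16 and Srebf2, the master regulator, lower by 0.50 ± 0.12. Of 17 genes of fatty acid and triglyceride synthesis, 2 were higher and 6 lower (median -0.29). The desaturase gene Scd2 was at 133 to 317 CPM (median 273) against 373 to 726 CPM (median 485), lower by 1.19 ± 0.17, and the elongase gene Elovl6 was lower by 0.66 ± 0.08. The triglyceride synthase gene Dgat2 was higher by 1.19 ± 0.19. Fatty acid oxidation had 5 higher and 4 lower of 20 (median 0.00), with Ehhadh, of peroxisomes, at 1.61 ± 0.21, Etfdh at 0.80 ± 0.09 and Cpt2 at -0.46 ± 0.08.

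Respiratory chain genes of the nucleus were higher in 9 of 29 cases and lower in none (median 0.17). Genes of the mitochondrial genome were lower in 8 of 13 cases and higher in 1 (median -0.41). The certain ones included mt-Nd1, lower by 0.56 ± 0.12, and mt-Nd2, lower by 1.70 ± 0.13. The 1 higher gene, mt-Co2, lost its difference when summed with nuclear copies, and libraries were selected for polyadenylated RNA, which mitochondrial transcripts carry only as short tails. Antioxidant genes were balanced at 8 higher and 8 lower of 21 (median -0.02). Heme oxygenase 1 (Hmox1) was higher by 1.26 ± 0.13 and peroxiredoxin 1 (Prdx1) by 0.65 ± 0.09, whereas Gstm2, of the glutathione transferases, was lower by 2.44 ± 0.34 and Nqo1 by 0.91 ± 0.15. Nnt, the mitochondrial transhydrogenase gene that is partly deleted in C57BL/6J, was at medians of 84.8 and 97.8 CPM and not called (-0.19 ± 0.10). It is uncertain by its shared words, and both strains lay above the C57BL/6J median of 30.2 CPM.

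Few cell cycle genes were called: 3 of 31 were higher and 1 lower, or 12.9% beside the 48.7% over all tested genes. Mki67, which dividing cells express, was at 5.20 to 23.5 CPM (median 11.3) against 10.4 to 22.8 CPM (median 14.5) and not called (-0.26 ± 0.21). The mitotic kinase gene Aurka was higher by 1.06 ± 0.18. Of 18 growth regulators of beta cells, 7 were higher and 2 lower (median 0.34). Igfbp5, for a binding protein of insulin-like growth factors, was higher by 1.56 ± 0.14, and the cell cycle inhibitor gene Cdkn1a by 0.98 ± 0.23. Cdk6, a kinase gene of cell cycle entry, was at 1.97 to 5.95 CPM (median 3.6) against 10.9 to 16.5 CPM (median 13.8), lower by 1.94 ± 0.14, and the inhibitor gene Cdkn2c was lower by 0.94 ± 0.15.

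Neither list of genes with known links to diabetes was called more often than all tested genes (48.7%). The shares were 35.3% of monogenic diabetes genes and 42.1% of genes near common type 2 diabetes variants. Of 17 tested monogenic diabetes genes, 2 were higher and 4 lower, and of 19 genes near common type 2 diabetes variants, 6 were higher and 2 lower. In the first group, Eif2ak3, for the stress kinase PERK, was higher by 0.61 ± 0.16 and Appl1, for an insulin signalling adaptor, lower by 0.64 ± 0.08. In the second group, Camk1d, for a calcium-dependent kinase, was higher by 1.31 ± 0.22 and Pam, for the peptide amidating enzyme, by 0.59 ± 0.11. Sorcs1, for a sorting receptor linked to insulin secretion in mouse crosses, was lower by 1.68 ± 0.13.

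Of the genes named in earlier crosses with NZO, 10 were tested, 3 were higher and 2 lower. Abcg1, a sterol transporter gene, was higher by 0.50 ± 0.11, Lepr was given above, and Pctp, a phosphatidylcholine transfer protein gene, was lower by 0.52 ± 0.10. The zinc finger gene Zfp69 (-0.28 ± 0.18), the GTPase-activating gene Tbc1d1 (-0.12 ± 0.09), Kti12 (0.23 ± 0.13) and Ttc39a (-0.07 ± 0.12) were not called. The other lower gene was the lipid-binding protein gene Osbpl9 (-0.15 ± 0.06, adjusted p = 0.0426 by edgeR), whose call was lost in 11 of the 14 fits that left out 1 sample, all but those without NZO/HlLtJ female 3, NZO/HlLtJ male 3 or CAST/EiJ male 3, with edgeR's adjusted p up to 0.135.

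The list of interferon-response genes had the highest median of the 37 lists. Interferons are signals of infection that induce antiviral GTPases, RNA sensors and antigen presentation. Of 32 tested genes, 30 were higher and 2 lower, against 24.9% and 23.8% of all genes, and the median log2 fold change was 1.87. The mean log2 CPM of the list was 1.94 to 3.77 in NZO/HlLtJ samples and 0.70 to 1.18 in CAST/EiJ samples, without overlap. Ifih1, the double-stranded RNA sensor MDA5, was at 22 to 30.9 CPM (median 28.8) against 4.34 to 6.97 CPM (median 5.43), higher by 2.35 ± 0.11 (adjusted p = 3.65e-09), and C57BL/6J, with a median of 26.5 CPM, lay with NZO/HlLtJ. Irgm1, a GTPase gene of pathogen defence, was higher by 2.26 ± 0.10, and C57BL/6J had 16.4 CPM beside medians of 19.7 and 6.06 CPM. Oas1a, an oligoadenylate synthase gene, was higher by 3.56 ± 0.17 and is uncertain. Its difference of mean log2(CPM + 0.5) was 2.36 alone and 2.57 summed with its copy.

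The antiviral GTPase genes Mx1 and Mx2, neighbours on chromosome 16, differed in opposite directions. Mx1 was at 17.4 to 77.1 CPM in NZO/HlLtJ (median 54.2) and 0.393 to 1.12 CPM in CAST/EiJ (median 0.719), higher by 5.99 ± 0.30 (adjusted p = 7.30e-09), and C57BL/6J, which carries a defective Mx1, had a median of 0.336 CPM. Mx2 was at 0.0280 to 0.786 CPM (median 0.167) against 2.78 to 7.41 CPM (median 4.27), lower by 4.46 ± 0.35 (adjusted p = 4.08e-07). Usp18, which restrains interferon signalling, was lower by 0.52 ± 0.14, with medians of 21.6 and 37.5 CPM. The 2 lower genes were thus Mx2 and Usp18.

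The interferon list was higher in both sexes, with a median of 0.86 in females and 2.60 in males. The 4 NZO/HlLtJ females had list means of 1.94 to 2.47 and the 3 males 3.32 to 3.77, while the CAST/EiJ females (0.70 to 1.18) and males (0.72 to 0.85) overlapped. Within the number ranges the list median was 1.78, 0.85 and 2.58, and the second range holds no NZO/HlLtJ male. Leaving out each sample in turn kept 30 higher and 2 lower each time, with medians of 1.73 to 2.02. Genes of antigen presentation were higher in 13 of 17 cases and lower in 1 (median 0.81, 0.45 in females and 1.25 in males). The immunoproteasome gene Psmb8 was at 14.1 to 31.7 CPM (median 16.8) against 4.10 to 8.77 CPM (median 4.79), higher by 1.95 ± 0.11, and the peptide transporter gene Tap2 was higher by 0.81 ± 0.08. The class I genes H2-D1 (2.43 ± 0.09) and H2-Q4 (-0.97 ± 0.12) are uncertain, since class I genes resemble each other and differ in sequence between strains.

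Markers of immune cells varied with some of the same samples. The summed CPM of the 17 macrophage markers was 78.8 to 330 in NZO/HlLtJ and 105 to 373 in CAST/EiJ, and 4 of 16 tested were higher and 1 lower (median 0.21). Adgre1, the F4/80 antigen gene, was higher by 1.47 ± 0.22 and Csf1r, the growth factor receptor gene of macrophages, lower by 0.66 ± 0.17. The 14 lymphocyte markers summed to 7.0 to 28.1 CPM in NZO/HlLtJ and 7.37 to 81.8 CPM in CAST/EiJ, with 5 higher and 1 lower, and the B cell gene Cd79a was lower by 2.51 ± 0.39. The 81.8 CPM came from CAST/EiJ male 3, whose mean log2 CPM over the interferon list was 0.78, inside the range of the other CAST/EiJ samples. Among NZO/HlLtJ samples, the 3 males were highest in the interferon, antigen presentation, macrophage and lymphocyte lists alike. Their macrophage markers summed to 108, 194.5 and 330 CPM, against 78.8 to 88.1 CPM in the 4 females. The same males were the highest of their strain in immediate early genes and the lowest in Gcg. The part of immune cells and of handling in the differences was not tested.

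**Figure D5:**
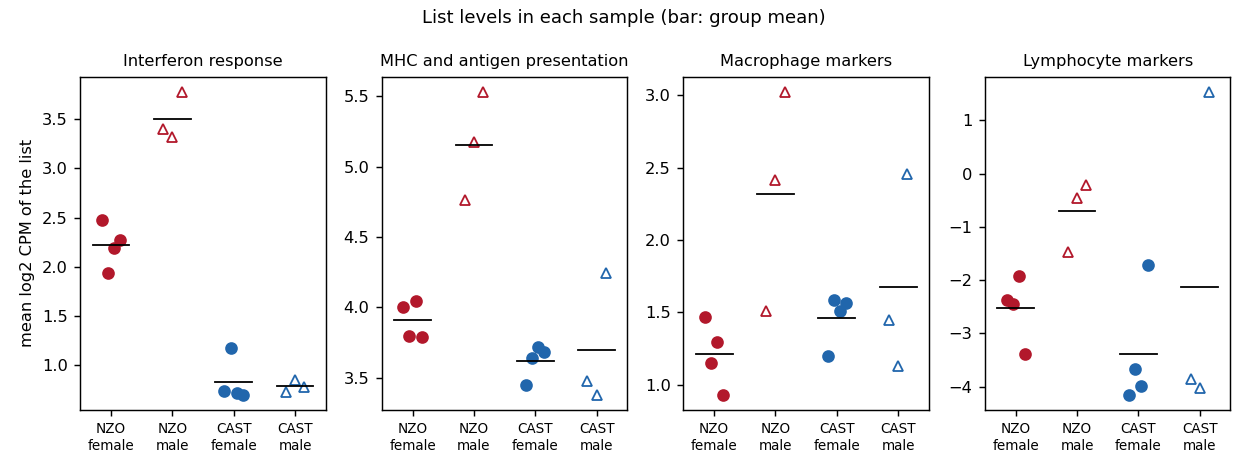
Mean log2 CPM of the interferon, antigen presentation, macrophage and lymphocyte lists in each sample of the 4 strain and sex groups, with the group mean as a bar. NZO/HlLtJ samples lie at 1.94 to 3.77 in the interferon list, above every CAST/EiJ sample, and CAST/EiJ male 3 is highest in the lymphocyte list at 1.53.

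Of the markers of vessels, connective tissue and ducts, many were higher in NZO/HlLtJ and none was lower. Of 15 endothelial markers 11 were higher (median 0.38), with Kdr, the vascular growth factor receptor gene, at 234 to 318 CPM (median 290) against 130 to 227 CPM (median 144), higher by 0.78 ± 0.09. The sialomucin gene Emcn was higher by 0.81 ± 0.09. Of 17 markers of stellate cells and fibroblasts 9 were higher (median 0.60), with the pericyte gene Rgs5 at 361 to 667 CPM (median 429) against 53.4 to 81.9 CPM (median 69.6), higher by 2.79 ± 0.13. The matrix genes Postn (2.38 ± 0.25) and Mgp (1.67 ± 0.20) and the receptor gene Pdgfrb (1.08 ± 0.12) were higher, and the fibroblast gene Dcn was not called (-0.01 ± 0.20). Leaving out NZO/HlLtJ male 3, which had the highest summed CPM of this list at 2927, gave 6 of 17 higher and a median of 0.32. The fits without CAST/EiJ female 1 and without CAST/EiJ male 3 also gave 6. Within the number ranges, in order, the median of this list was 0.65, -0.20 and 1.06. That of the endothelial list was 0.43, 0.04 and 0.64, and the second range holds no NZO/HlLtJ male.

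Of 12 duct markers 6 were higher (median 0.81), among them the claudin gene Cldn4 at 1.41 ± 0.09 and the keratin gene Krt7 at 1.16 ± 0.14, while Epcam (-0.09 ± 0.09) was not called. The summed CPM of each of these 3 lists did not overlap between the strains: endothelial 1129 to 1407 against 789 to 1075, stellate 1040.0 to 2927 against 584 to 987, and duct 719 to 1318 against 508 to 705. Their part in the differences of other genes was not tested. Of 26 acinar genes none was higher and 2 were lower, Amy2b (-5.81 ± 1.06) and Prss1 (-4.41 ± 1.17), both uncertain. The fold of Amy2b was -4.46 without CAST/EiJ male 2. The call on Prss1 was lost without CAST/EiJ female 1 (-3.41, adjusted p = 0.0641 by edgeR), and its fold was -5.00 without CAST/EiJ male 1, -3.11 without CAST/EiJ male 2 and -6.04 without NZO/HlLtJ male 3. Amy2b went from -5.32 to 0.78 when summed with the other amylase genes. The regenerating genes, of the lectin family made by acinar and injured islet cells, split: Reg3b was higher by 5.75 ± 1.03 and Reg3g by 4.01 ± 1.01, and Reg2 was lower by 3.63 ± 0.89. Leaving out 1 sample moved these to between 5.13 (CAST/EiJ male 1) and 7.67 (CAST/EiJ male 3) for Reg3b, between 3.12 (NZO/HlLtJ female 2) and 4.60 (CAST/EiJ male 3) for Reg3g, with 3.32 without CAST/EiJ male 1, and between -4.26 (CAST/EiJ male 1) and -2.94 (CAST/EiJ male 2) for Reg2. Of 6 erythrocyte genes 1 was higher, the uncertain Hba-a1, and of 12 immediate early genes 2 were higher (median -0.07, -0.61 in females and 0.68 in males). Their summed CPM spanned 712 to 4417 in NZO/HlLtJ and 1048 to 4369 in CAST/EiJ. Of 8 Schwann cell markers 1 was higher and 2 were lower (median -0.15), among them S100b at -1.38 ± 0.23.

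The strain difference was called for 5675 genes in females (30.1%) and 5705 in males (30.2%). Both sexes called 4091, of which 4087 had the same sign. A difference between the sexes in the strain effect was called for 0 genes (0.0%), with 1018 at an unadjusted p under 0.05 (5.39%), and DESeq2 called 84. The smallest adjusted p was 0.098, for H2-K1 and Pfkp. H2-K1, an uncertain class I gene, had a strain difference of -0.51 in females and 0.56 in males, and Pfkp, a phosphofructokinase gene, -0.19 and -1.22. Other named genes with a larger value in males were Irgm1 (1.58 and 2.94, adjusted p = 0.113) and the stress factor gene Atf3 (-1.91 and 1.90, adjusted p = 0.272). Edn3, an endothelin gene (1.22 and -0.03), had a smaller value in males, and none of these passed the threshold.

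The C57BL/6J levels lay with NZO/HlLtJ for some genes and with CAST/EiJ for others. Of 2901 certain genes called at 2-fold or more, the C57BL/6J median lay within the NZO/HlLtJ range only for 1036, within the CAST/EiJ range only for 717, within both for 309 and within neither for 839. It was nearer to NZO/HlLtJ, on a log scale with 0.1 CPM added, for 1819 genes. C57BL/6J is also the strain of the reference genome, from which CAST/EiJ differs at far more sites than NZO/HlLtJ. The part of the reference in these counts was not tested. On the autosomes, the X and the mitochondrial chromosome, the share of certain genes called ran from 43.5% on chromosome X to 54.9% on chromosome 13. Neither of the 2 certain genes tested on chromosome Y was called. The uncertain pseudogene Gm20775 of chromosome Y was called, at 4.82 to 7.16 CPM in CAST/EiJ samples and without a count in NZO/HlLtJ. In several places, 4 or 5 neighbouring certain protein-coding genes all differed by 2-fold or more in 1 direction. Lower were the protocadherin genes Pcdhb5 to Pcdhb8 on chromosome 18 (37320381 to 37358604, log2 -2.50 to -1.02). Higher, among others, were Bcas1, Dok5, Cbln4, Fam210b and Aurka on chromosome 2 (170346991 to 172370535), Fn1, Mreg, Pecr and Tmem169 on chromosome 1 (71585520 to 72303104), and Evc, Evc2, Stk32b and Cytl1 on chromosome 5 (37289098 to 37739820). These runs were found after the values were seen, and genes between them that were not tested do not count.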

How the data were processed

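Islet polyadenylated RNA of 14 samples was compared. The authors deposited expected counts per gene, which need not be whole, and log2 values from a variance-stabilising transformation. The submitters' processing notes name GRCm38 and DESeq2, and the aligner, counter and strand setting were not stated in the labels or headers. Of the 22904 genes in the table, 22763 matched GENCODE M21, which gave positions and transcript words.

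Expected counts were rounded and tested with edgeR 4.0.16 (quasi-likelihood, TMM scaling, filterByExpr with a minimum count of 10, R 4.3.3), with terms for strain by sex and for the range of consecutive sample identifiers, adjusted over all 18876 genes at 0.05. limma 3.58.1, DESeq2 1.42.0 and other settings were alternatives. CPM used TMM factors over all 45 libraries. Each sample had at least 73760837 counts, so counting error is small for abundant genes. Data simulated for the mean of the sexes covered 18474 genes. Only 99 of them were changed by a log2 value of 1 and 99 by 0.5. The test recovered 57.6% and 19.2% of these, with 3.8% false calls. The adjustment depends on the share of genes that differ, and 48.7% were called in the real data. The simulated rates therefore need not hold for the reported test. No 2 samples of a group agreed within counting noise (chi-square per degree of freedom at least 81.5).

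Genes were named by rule: the 12 largest non-overlapping changes in each direction, genes seen in 1 strain, up to 4 genes by p in each direction of every list, a fixed set of islet genes, and 6 by p in each direction of the strain by sex difference. The members and lists were chosen with earlier results of these data known. Near-copy thresholds and sums were chosen after the data were seen. Some genes that these rules name are not reported here.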

Additional observations from a re-analysis of the deposited data

Results flagged for a closer look

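In each group of 4 females, the highest or lowest sample was compared with the other 3, for the acinar share and for each named gene. Of 338 such groups, 38 held a sample whose gap to the nearest other exceeded Dixon's 95% critical value, and 5 held 4 equal values and could not be tested. In 7 of the 38 the other 3 samples had no count, so the gap is the whole range by construction: Iigp1, 9930111J21Rik2, Nlrp1a, Gm13697, Kcnmb3 and, in both strains, Ddx3y. Chance exceeds the critical value in about 1 in 20 groups (5.0%), a rate that does not apply to such counts, and the named genes share samples. Flagged values are listed by sample, in CPM. CAST/EiJ female 1 stood apart in Iigp1 at 0.0271, 9930111J21Rik2 at 0.0136 and Mki67 at 14.5. CAST/EiJ female 2 stood apart in Cck at 0.47 and Ddx3y at 0.0127. CAST/EiJ female 3 stood apart in Kcnk16 at 38. CAST/EiJ female 4 held 41.1% of counts in acinar genes, far from the other 3. The same sample stood apart in Pax6 at 158, Herpud1 at 320, Phgdh at 110, Gstm2 at 98.8, Eno2 at 110, Camk1d at 13.8, Ifih1 at 6.97, Amy2b at 162000, Reg3b at 11.8 and Reg3g at 2.65. NZO/HlLtJ female 1 stood apart in Casr at 96.9. NZO/HlLtJ female 2 held 8.85% of counts in acinar genes, far from the other 3. The same sample stood apart in Nptx1 at 23.9, 4930550C14Rik at 2.48, Nlrp1a at 0.0186, Gm13697 at 0.00932, Gstm2 at 4.93, Amy2b at 401, Reg3b at 113, Reg3g at 3.34, Reg2 at 59.9 and Ddx3y at 0.0186. NZO/HlLtJ female 3 stood apart in Nnat at 7.34, Kcnmb3 at 0.0295, Aldh1a3 at 24.4 and H2-D1 at 144. NZO/HlLtJ female 4 stood apart in Iapp at 17300, Sst at 2550, Ehhadh at 22.5, Tbc1d1 at 95.2 and Osbpl9 at 38.8.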

How the results depend on the processing

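The count of called genes in the mean of the sexes ran from 7150 (1 CPM in 7 samples, fewer genes tested) to 11009 (all 45 samples), and from 8192 to 9531 with 1 sample left out. The strain by sex difference, 0 genes by edgeR, was called for 84 by DESeq2, 5 without the range term, 5 with all 45 samples and 7 by limma, and for 0 to 20 with 1 sample left out, 20 without CAST/EiJ female 2. The cause was not tested. The acinar difference reversed to 0.255 as a mean log2 CPM, and lay between -6.1 and 0.736 percentage points with 1 sample left out, 0.736 without CAST/EiJ female 4. Genes seen in 1 strain, 21 in all, numbered 4 at 5 CPM or more, 51 with up to 10 counts allowed, and 21 to 24 with 1 sample left out. Among named genes, over all settings, 54 calls were weaker and 14 stronger, and none reversed. No paired analysis was possible because the labels give no replicate numbers. Depth does not limit abundant genes, and genes under about 1 CPM rest on few counts.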
